A study of Mus musculus with 2 samples.

Results

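The phagocyte NADPH oxidase was followed through the genes of 4 of its subunits, Cyba, Cybb, Ncf1 and Ncf4, found by symbol among 43346 annotated mouse genes. All 4 were measured in both libraries of the study and all 4 were at 1 TPM or more (transcripts per 1000000, a level corrected for transcript length) in each. The libraries are poly(A)-selected RNA of primary megakaryocyte-erythroid progenitors (MEP), committed bone marrow cells whose descendants are erythrocytes and the megakaryocytes that shed platelets. There is 1 group, adult C57BL/6J females 5 weeks old with no treatment or allele named, with 2 biological replicates under 1 donor identifier. Estimated counts on genes came to 79539457 in replicate 1 and to 65305321 in replicate 2. A label describes the cells as CD34 negative and names CD16/32 and lineage markers in the same phrase. No condition was compared, and whether the replicates came from separate animals is not stated, so their spread may be partly technical.

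The oxidase moves electrons from NADPH across a membrane to oxygen, which makes superoxide. Its membrane core is a flavocytochrome made of gp91phox (NOX2, from Cybb), the catalytic chain that carries flavin and heme, and p22phox (from Cyba), which stabilises it. The cytosolic subunits p47phox (from Ncf1), the organiser that docks on p22phox, and p40phox (from Ncf4), which binds a phosphoinositide of the phagosome membrane, join the core on activation together with the GTPase Rac. The complex is best known from neutrophils, monocytes and macrophages, and its inherited loss in humans causes chronic granulomatous disease.

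Genes of the labelled lineages were present, beside a few granulocyte genes at far higher levels in both libraries. Klf1 and Gata1, transcription factors of erythroid cells, were at 123 and 28.5 TPM in replicate 1 and at 124 and 45.8 TPM in replicate 2. Itga2b, an integrin of megakaryocytes, was at 115 and 211 TPM. Mpo, the peroxidase of neutrophil granules, was at 10136 and 6523 TPM, and 21 granulocyte and monocyte markers summed to 33029 and 19287 TPM, against 445 and 542 TPM for 10 erythroid markers. Most of the first sum was Mpo and the granule protease genes Prtn3 and Elane, without which it was 3669 and 3242 TPM. The medians were closer, at 44.6 and 31.2 TPM for the granulocyte and monocyte markers and 15.8 and 27.6 TPM for the erythroid ones. Several markers of mature neutrophils were low, such as Ly6g at 2.81 and 0.12 TPM. Other neutrophil genes of that list were not, such as Camp at 819 and 1035 TPM, Lcn2 at 405 and 354 TPM and S100a9 at 316 and 337 TPM. The part of granulocytes and monocytes in the oxidase levels was not tested. In bulk RNA, fewer cells of a type and less RNA per cell cannot be told apart.

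The promoter windows are shown to describe the sequence around the start sites. Their part in the levels was not tested. RefSeq (GRCm38.p6) windows matched 3 of the 4 members. Each runs from 250 bases before the start site to 30 bases from it on, 5′ to 3′, and all 3 genes lie on the minus strand. Capitals mark matches, on either strand, to the PU.1 core GAGGAA, to the CCAAT box, to GGGCGG, which is a GC box, or to GATAA, a core read by GATA factors. No matches overlapped.
Cyba, chr8:122432911-122433190: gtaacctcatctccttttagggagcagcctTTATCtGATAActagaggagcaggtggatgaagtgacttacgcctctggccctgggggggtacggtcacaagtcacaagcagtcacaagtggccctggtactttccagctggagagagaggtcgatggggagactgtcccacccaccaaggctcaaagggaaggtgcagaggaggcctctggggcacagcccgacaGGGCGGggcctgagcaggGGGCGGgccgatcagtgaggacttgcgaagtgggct
Cybb, chrX:9469295-9469574: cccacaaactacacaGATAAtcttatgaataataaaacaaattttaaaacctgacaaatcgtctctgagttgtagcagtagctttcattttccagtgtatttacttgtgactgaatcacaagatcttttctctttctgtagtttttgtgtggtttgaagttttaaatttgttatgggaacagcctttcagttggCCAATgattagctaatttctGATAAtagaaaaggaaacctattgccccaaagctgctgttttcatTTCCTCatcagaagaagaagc
Ncf1, chr5:134229596-134229875: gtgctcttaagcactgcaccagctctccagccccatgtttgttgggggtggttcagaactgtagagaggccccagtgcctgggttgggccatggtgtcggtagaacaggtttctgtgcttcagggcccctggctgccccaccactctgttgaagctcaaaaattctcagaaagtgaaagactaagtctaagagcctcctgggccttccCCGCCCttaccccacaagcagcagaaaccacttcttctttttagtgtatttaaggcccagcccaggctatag

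The Cyba window held 2 GC boxes, 24 and 6 bases before the start site, and 2 GATAA matches farther out, with 60% G and C. The Cybb window, at 34.3% G and C, held a CCAAT box 56 bases before the start site, 2 GATAA matches and 1 GAGGAA match on the opposite strand, 9 bases past the start. The Ncf1 window held 1 GC box alone. Over all 32851 windows of this length, GAGGAA was in 26%, CCAAT in 36.1%, GGGCGG in 34.7% and GATAA in 24.4%, so each match is common by itself. A match describes letters, not a bound site.

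Of the 4 subunit mRNAs followed, that of the membrane partner was the most abundant and that of the catalytic chain the least. Cyba (ENSMUSG00000006519.10, GRCm38 chromosome 8, 122424776 to 122432930) was at 846 TPM in replicate 1 and 616 TPM in replicate 2, which is 731 ± 163 (SD, n = 2). Its mean stood at percentile 99.2 of 21474 protein-coding genes. The estimated counts behind it were 34611 and 19974, and the authors' TPM lay just above their own interval in both libraries (828 to 845 in replicate 1, 598 to 615 in replicate 2).

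Cybb (ENSMUSG00000015340.6, chromosome X, 9435252 to 9487771) was at 6.31 TPM in replicate 1 and 3.89 TPM in replicate 2, or 5.1 ± 1.71 (SD, n = 2). It rested on 1878 and 882 estimated counts over an effective length of 4500 and 4291 bases. Its mean stood at percentile 64.5 of protein-coding genes, and at percentile 24.2 among those at 1 TPM or more in both libraries, a level reached by 46.9% of protein-coding genes.

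The cytosolic subunits lay between these. Ncf1 (ENSMUSG00000015950.9, chromosome 5, 134220053 to 134229625) was at 370 TPM in replicate 1 and 235 TPM in replicate 2, or 302 ± 95.8 (SD, n = 2), from 24289 and 13078 counts. Ncf4 (ENSMUSG00000071715.7, chromosome 15, 78244801 to 78262580) was at 64.3 TPM in replicate 1 and 56.4 TPM in replicate 2, or 60.3 ± 5.59 (SD, n = 2), from 4883 and 2981 counts. They stood at percentiles 97.7 and 89.5 of protein-coding genes. The level of Ncf1 depends on how its transcripts are counted, as the transcript values show.

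**Figure D1:**
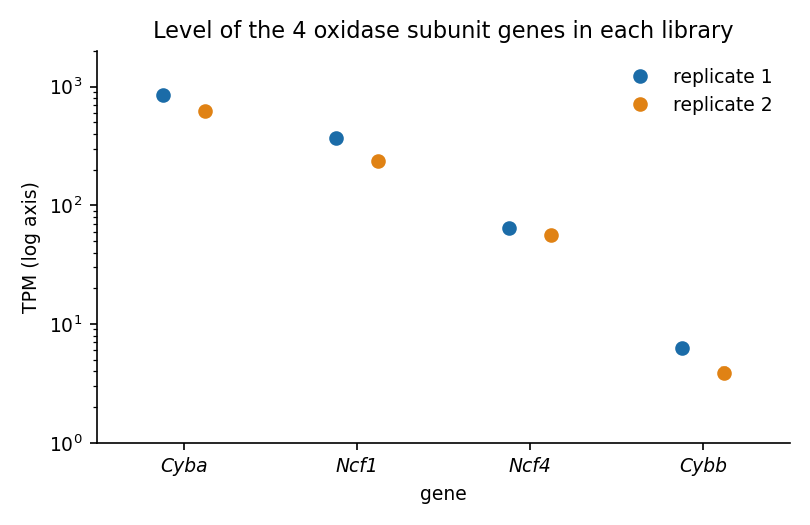
TPM of each subunit gene (log axis) in replicate 1 and replicate 2, with the authors' interval of each value drawn as a bar that the point hides. The order Cyba, Ncf1, Ncf4, Cybb is the same in both libraries, from 846 and 616 TPM for Cyba to 6.31 and 3.89 TPM for Cybb.

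**Figure D2:**
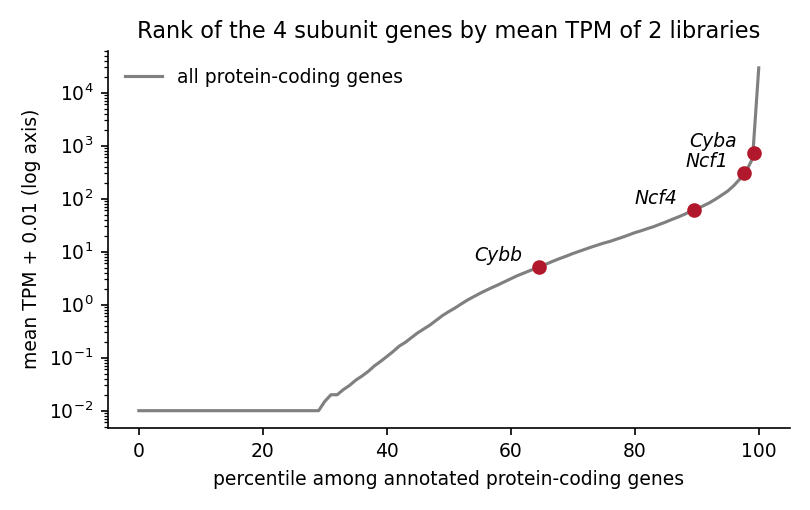
Mean TPM of 2 libraries plus 0.01 (log axis) against percentile for all 21474 protein-coding genes (line), with the 4 subunit genes as points. Cyba and Ncf1 sit in the steep top of the curve at percentiles 99.2 and 97.7, Ncf4 at 89.5 and Cybb at 64.5.

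Every one of the 6 member pairs kept its order in both libraries, each time with a mean ratio above 2-fold and TPM intervals that did not touch. The widest gap was inside the flavocytochrome itself. Cyba exceeded Cybb by a log2 ratio of TPM of 7.18 ± 0.17 (SD, n = 2), a 145-fold difference in level. Ncf1 exceeded Cybb by 5.89 ± 0.03 and Ncf4 exceeded Cybb by 3.60 ± 0.36, both as log2 ratios of TPM. On protein-coding transcripts alone, a choice made after seeing the data, Ncf1 exceeded Cybb by a log2 ratio of 3.32, or 10-fold in place of 59.3-fold. With all reads over the longest protein-coding transcript of each gene, it was 4.54, or 23.2-fold. Cyba exceeded Ncf4 by a log2 ratio of gene TPM of 3.58 ± 0.19.

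The size of the gaps around Ncf1 depended on which transcripts were counted. Cyba exceeded Ncf1 by a log2 ratio of TPM of 1.29 ± 0.14 (SD, n = 2), or 2.45-fold, and in counts not corrected for length the log2 ratio was 0.56, under 2-fold. The same pair was 3.94 apart, or 15.3-fold, on protein-coding transcripts, and 2.71 apart, or 6.56-fold, with all reads over the longest of them. Ncf1 exceeded Ncf4 by a log2 ratio of TPM of 2.29 ± 0.33, or 4.89-fold. With TPM summed over protein-coding transcripts alone, that log2 ratio was 0.05, a 1.03-fold difference, and the pair was no longer ordered. With 2 libraries the smallest p of an exact sign test, two-sided, is 0.5, so the order carries no p-value.

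In the transcript tables most of the TPM of Ncf1 belonged to a short transcript with no coding annotation. Ncf1-207, annotated as a retained intron and 690 bases long, held 68.3% of Ncf1 TPM in replicate 1 and 63.1% in replicate 2, or 65.7% ± 3.65 (SD, n = 2). The full-length protein-coding transcript Ncf1-202, of 2721 bases, held 10.3% and 12.1%. Ncf1-206, annotated for nonsense-mediated decay, held 16.4% and 19.9%. Its annotated coding sequence is the same as that of Ncf1-202, but the values for protein-coding transcripts leave it out.

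Ncf1-207 covers the 3′ part of the gene. It has 2 exons where Ncf1-202 has 11, and 643 of its 690 bases are also exon bases of Ncf1-202. Of these, 262 are coding sequence and 381 lie past it, in the stop codon and 3′ UTR, which together span 1493 bases in Ncf1-202. The remaining 47 bases are the end of the intron before exon 10, so only they set its sequence apart from the full-length mRNA.

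Those 47 bases are shown in capitals, followed by the first 30 bases of exon 10, since they are what makes this model differ. The 2 lines after it show a second difference between full-length transcripts, spliced across exons 10 and 11. Capitals mark the 42 coding bases that Ncf1-201 has and Ncf1-202 lacks. The sequences are GENCODE M21 transcripts on GRCm38, minus strand, 5′ to 3′.
Ncf1-207, chr5:134222146-134222222: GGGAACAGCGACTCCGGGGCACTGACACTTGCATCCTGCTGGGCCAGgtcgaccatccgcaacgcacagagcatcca
Ncf1-201, chr5:134221839-134222059: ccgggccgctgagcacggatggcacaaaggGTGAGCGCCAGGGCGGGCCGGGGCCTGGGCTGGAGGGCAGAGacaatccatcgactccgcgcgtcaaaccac
Ncf1-202, chr5:134221839-134222059: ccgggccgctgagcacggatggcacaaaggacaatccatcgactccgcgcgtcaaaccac

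The longer exon 10 was the rarer form. Ncf1-201 was at 14.2 TPM in replicate 1 and 5.97 TPM in replicate 2, against 38.2 TPM and 28.4 TPM for Ncf1-202. Their intervals were separate in each library (12.6 to 15.2 against 35.5 to 40.1 in replicate 1, 4.91 to 6.74 against 26 to 29.9 in replicate 2). Ncf1-205, which reads through the last intron, was at 3.47 and 5.3 TPM.

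In reads rather than TPM the short model was a smaller part of Ncf1. It took 37.9% of the Ncf1 estimated counts in replicate 1 and 32.7% in replicate 2, while the 3 protein-coding transcripts took 39.6% and 41.7% of counts but 15.1% and 16.9% of TPM. Summed over those 3 transcripts, Ncf1 was at 55.8 TPM in replicate 1 and 39.6 TPM in replicate 2. The 2 protein-coding transcripts of Ncf4 were at 54.2 TPM and 38.3 TPM. If instead every Ncf1 read is spread over the longest protein-coding transcript, of 2882 bases, Ncf1 was at 134 TPM and 90.3 TPM, and its log2 ratio to Ncf4 treated the same way was 1.17, or 2.25-fold.

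**Figure D3:**
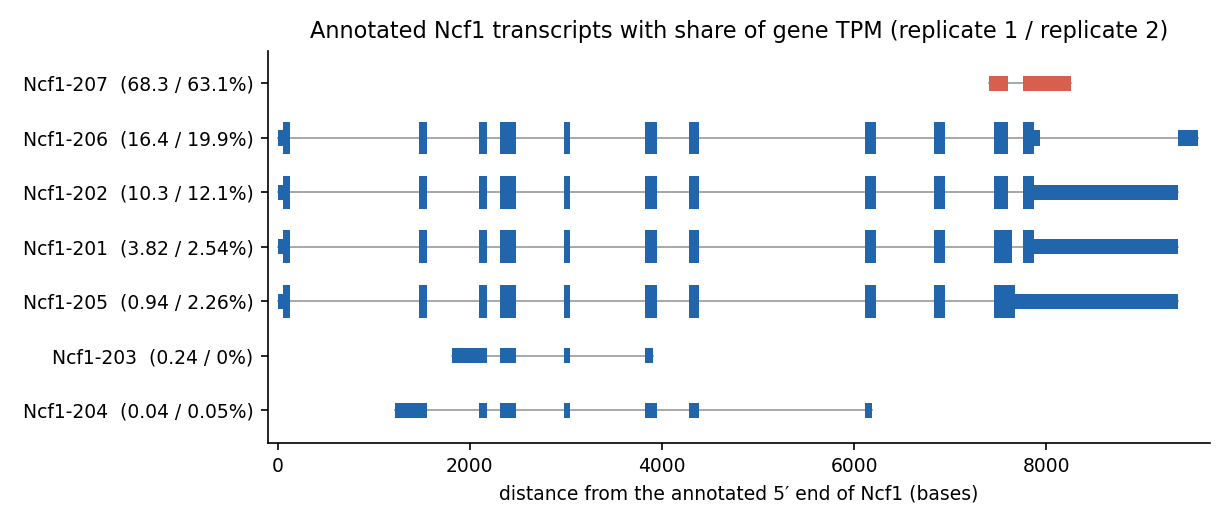
Annotated Ncf1 transcripts drawn to scale as distance in bases from the 5′ end of the gene, with thin boxes for exons, tall boxes for coding sequence and each transcript's share of Ncf1 TPM in replicate 1 and replicate 2. The short Ncf1-207 (red) overlies the last 2 exons of the full-length transcripts and held 68.3% and 63.1%.

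The other 3 members were mostly their coding transcript. Cyba has 1 transcript in the authors' annotation, Cyba-201. Cybb-201, of 4752 bases, held 97.2% of Cybb TPM in replicate 1 and 92.2% in replicate 2, and 99.6% and 99% of its counts. Ncf4-201, of 1464 bases, held 79% and 63.7% of Ncf4 TPM, and 91.2% and 84.1% of its counts.

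Within Ncf4 a short transcript and the main coding transcript differed between the libraries in opposite directions. The retained intron model Ncf4-206, of 540 bases, was at 2.54 TPM in replicate 1 and 9.67 TPM in replicate 2, with intervals of 0.151 to 4.75 and 7.33 to 12.2. Ncf4-201 was at 50.8 TPM in replicate 1 and 35.9 TPM in replicate 2. On log2 TPM the gene as a whole differed by 0.19.

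**Figure D4:**
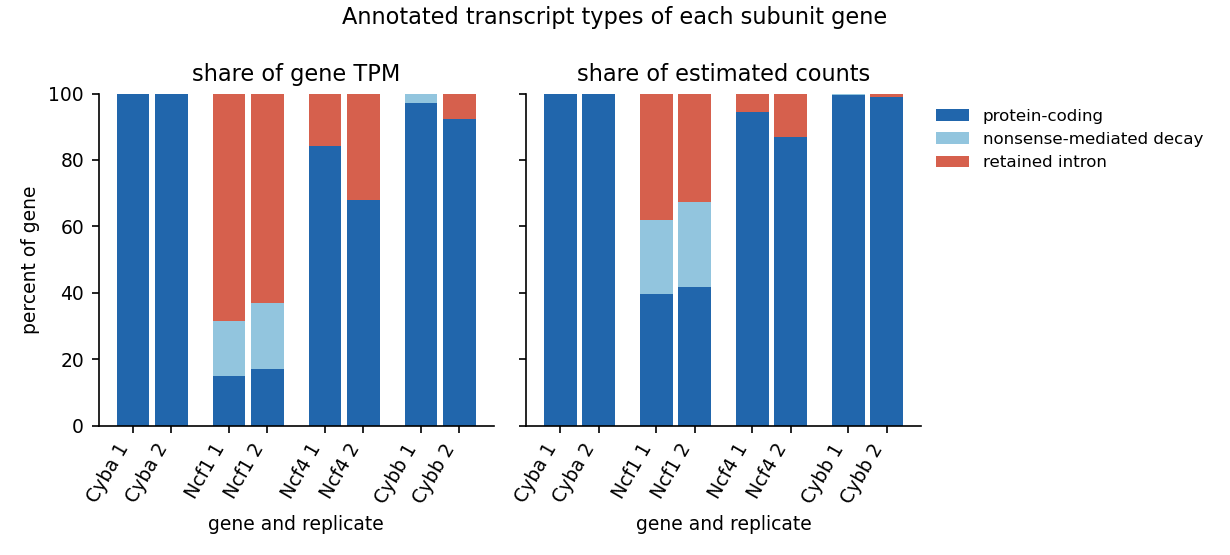
Share of each subunit gene's TPM (left) and estimated counts (right) held by protein-coding, nonsense-mediated decay and retained intron transcripts, in percent, with replicate 1 left of replicate 2 for each gene. Ncf1 is the gene whose protein-coding transcripts held little of its TPM, 15.1% and 16.9%, against 39.6% and 41.7% of counts. The nonsense-mediated decay transcript of Ncf1, which is annotated with a full coding sequence, is left out of these shares. It held 16.4% and 19.9% of Ncf1 TPM, and 22.4% and 25.6% of Ncf1 counts.

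Genes that overlap members were at lower levels than the member each overlaps. Gtf2ird2 lies on the opposite strand over the 3′ part of Ncf1 and was at 10.7 TPM in replicate 1 and 8.92 TPM in replicate 2. Gm20388, a long gene model on the opposite strand whose span holds all of Cyba, was at 14.9 TPM and 9.53 TPM. The deposited text lists signal tracks for each strand, but does not say whether counting used the strand, so reads of overlapping genes cannot be told apart.

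All 4 members were higher in replicate 1, as were 53.6% of the genes tested, and none by 2-fold. The difference of TMM-scaled log2 CPM (counts scaled to library size), replicate 1 minus replicate 2, was 0.86 for Cybb, from 24.1 CPM in replicate 1 and 13.2 CPM in replicate 2. It was 0.67 for Ncf1 (312 and 196 CPM), 0.57 for Cyba (444 and 300 CPM) and 0.49 for Ncf4 (62.6 and 44.7 CPM). The median over the members was 0.62, against 0.02 over the 7653 protein-coding genes with a mean of 5 TPM or more. Cybb, at 5.1 TPM, was just inside that limit.

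A difference counted as apart when it passed 2-fold with separate TPM intervals, and 0 of 4 members did so. The background was 1.03% of the 7653 genes apart and higher in replicate 1, and 0.34% apart and higher in replicate 2, which is 79 and 26 genes. That lean to replicate 1 was not kept on log2 TPM, with 66 and 66 genes, and with no filter on low values the counts were 463 and 516. With separate intervals alone, a rule added after seeing the data, 4 of 4 members were higher in replicate 1, where 25.1% of genes were. Of the 7653 genes, 1.84% had a difference at least as high as Cybb, 3.97% as Ncf1, 5.74% as Cyba and 7.98% as Ncf4. On log2 TPM the differences were 0.70 for Cybb, 0.66 for Ncf1, 0.46 for Cyba and 0.19 for Ncf4. This sets 1 library against 1, so it has no replicate check and no p-value. The biological coefficient of variation of edgeR was 21.8% over 13546 genes, and its trend at the level of the members ran between 15.2% and 17.1%.

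Markers of other cell types moved between the same libraries. Of 21 granulocyte and monocyte markers, 16 had a mean of 5 TPM or more and 15 of these were higher in replicate 1 on CPM. The median log2 difference of the 16 was 0.65. By separate TPM intervals, 13 were higher in replicate 1 and 3 in replicate 2, against 25.1% and 41.7% of all tested genes. Of the 16, 4 were past 2-fold with separate intervals, as were 9 of the 21 at any level, all higher in replicate 1. Some of the 9 were very low, such as Fcgr1 at 0.14 and 0.03 TPM. At any level, 463 of all 21474 protein-coding genes were apart and higher in replicate 1, and 516 in replicate 2. None of the 21 was without counts in both libraries. B cells also carry the oxidase. Of 8 B cell markers, 5 had a mean of 5 TPM or more. All 5 were higher in replicate 1 on CPM and by separate TPM intervals, and 2 were past 2-fold. The median log2 difference of the 5 was 0.88. The 8 summed to 103 and 47.3 TPM. The 9 megakaryocyte markers summed to 219 and 359 TPM, with the collagen receptor gene Gp6 without counts. Of the 7 with a mean of 5 TPM or more, all were higher in replicate 2 on CPM, and 5 by separate TPM intervals. Of 6 erythroid markers with a mean of 5 TPM or more, 4 were higher in replicate 2 on CPM, and 5 by separate TPM intervals. Eosinophil, basophil and mast cell markers summed to 123 and 138 TPM over 6 genes, macrophage markers to 44.3 and 37.9 TPM over 6, and T and NK cell markers to 0.69 and 0.8 TPM over 5. The part of these cells in the differences was not tested.

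**Figure D5:**
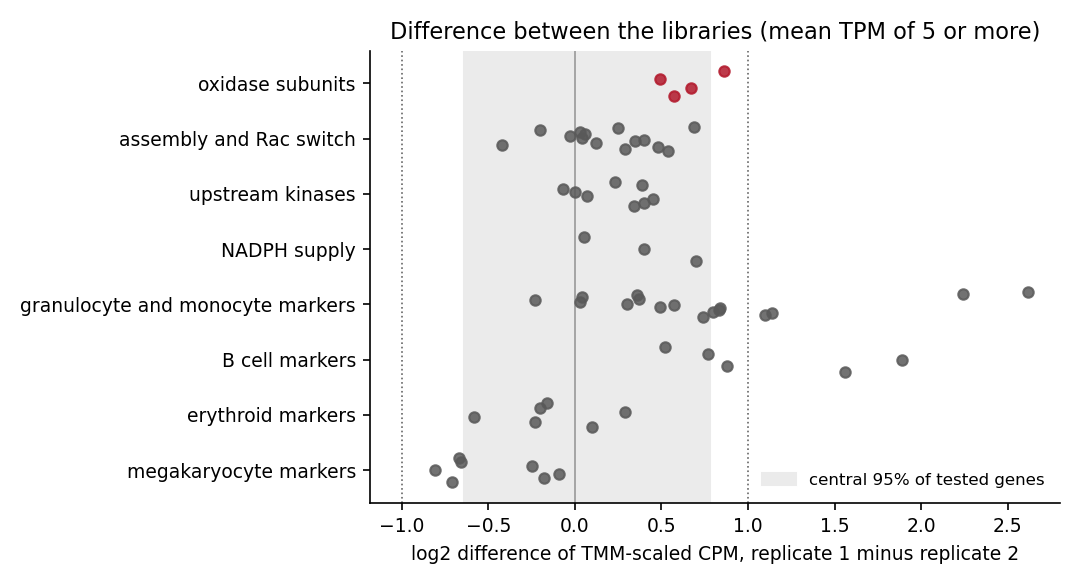
Log2 difference of TMM-scaled CPM, replicate 1 minus replicate 2, for genes with a mean of 5 TPM or more (points), the central 95% of all 7653 tested genes (grey) and 2-fold (dotted). The 4 subunit genes lie between 0.49 and 0.86, Cybb beyond the grey band that ends at 0.78, on the side of most granulocyte and B cell markers and opposite to the megakaryocyte markers.

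Of the catalytic genes of the NADPH oxidase family measured, Cybb was the 1 with counts in both libraries. Nox3, Duox1 and Duox2, catalytic genes of other NADPH oxidases, had 0 counts in each, which allows up to 0.0377 CPM in replicate 1 and 0.0459 CPM in replicate 2 (3 counts per library, counting error only). Nox1 had 10 counts in replicate 1 and 0 in replicate 2, and Nox4 had 0 and 1. Cyba protein also pairs with NOX1, NOX3 and NOX4. Of the organisers and maturation factors, Noxo1, the counterpart of Ncf1 in the NOX1 system, was at 1.98 and 1.36 TPM. Noxa1 had 3 and 12 counts, and the DUOX maturation factor genes Duoxa1 and Duoxa2 had 0. In all, 1 of 9 genes of the other oxidases was at 1 TPM or more in both libraries.

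Transcripts of genes listed for assembling and switching the oxidase were detected. All 14 genes reported of that list were at 1 TPM or more in both libraries, a level reached by 46.9% of protein-coding genes. Their medians were 43 TPM in replicate 1 and 39.4 TPM in replicate 2, against 0.67 and 0.75 TPM over all protein-coding genes, detected or not. Cybc1, whose product is a chaperone needed for gp91phox to accumulate, was at 25.9 ± 3.15 TPM (SD, n = 2). The GTPase gene Rac2, the main Rac of the neutrophil oxidase, was at 530 ± 99.3 TPM and Rac1 at 113 ± 10.6 TPM. Rac3 was among the lowest, at 6.88 ± 2.02 TPM, with Rap1a at 12.2 ± 0.127 TPM. The genes of the RhoGDI proteins that hold Rac in the cytosol were high, Arhgdia at 1202 ± 144 TPM and Arhgdib at 239 ± 37.4 TPM.

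The median log2 difference of CPM in this list was 0.18, against 0.62 for the subunits and 0.02 over all tested genes. On CPM, 11 of 14 genes were higher in replicate 1 and 0 were past 2-fold. By separate TPM intervals, 7 were higher in replicate 1 and 5 in replicate 2. Hvcn1, the proton channel that balances the charge the oxidase moves, had the largest difference at 0.69, from 48.3 TPM in replicate 1 and 31.2 TPM in replicate 2. Cybc1 differed by 0.54 and Rac2 by 0.48 on the same log2 CPM scale.

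Of 13 kinases and lipid kinases upstream, 12 were at 1 TPM or more in both libraries. Akt1 was highest at 410 ± 13.4 TPM (SD, n = 2). Pik3cd, a phosphoinositide 3-kinase of leukocytes, was at 78 ± 10.7 TPM and Prkcd, a protein kinase C that phosphorylates p47phox, at 64.3 ± 5.44 TPM. Pik3c3, which makes the phosphoinositide that p40phox binds, was at 1.93 ± 0.396 TPM, and Prkcz had 0 and 4 counts. Of the 8 genes with a mean of 5 TPM or more, 7 were higher in replicate 1 on CPM, against 53.6% of all tested genes. The median log2 difference of the 8 was 0.28, against 0.02 over all tested genes. The p21-activated kinase gene Pak2 had the largest at 0.45. Judged by separate TPM intervals, 4 of the 8 were higher in replicate 1 and 3 in replicate 2.

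Among 6 genes that supply NADPH, 4 were at 1 TPM or more in both libraries. The pentose phosphate pathway genes Pgls and Pgd were at 420 ± 8.82 TPM and 276 ± 38.8 TPM (SD, n = 2), and G6pdx, its first and rate-limiting step, was at 23.7 ± 5.76 TPM. Among the 3 genes with a mean of 5 TPM or more, G6pdx had the largest difference, 0.70 on the log2 CPM scale, with 27.7 TPM in replicate 1 and 19.6 TPM in replicate 2. Below that level, Idh1, an NADP-dependent isocitrate dehydrogenase gene named here after its values were seen, differed by 1.24, or 2.37-fold, with 3.85 TPM in replicate 1 and 1.76 TPM in replicate 2 and separate intervals. The copy of G6pdx, G6pd2, had 0 counts and the malic enzyme gene Me1 10 and 16 counts.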

How the data were processed

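Poly(A) RNA of 2 MEP libraries was quantified by the authors. Per the deposited text files the assembly was mm10 with GENCODE M4. The sources used here name no aligner or quantification program. Per the file headers, the authors deposited an expected count per gene and transcript, TPM and FPKM derived from it, and each transcript's percent of its gene. Their TPM intervals cover quantification error within 1 library at a level the headers do not state. Symbols and coordinates came from GENCODE M21 (GRCm38) by identifier without version, matched for 42462 of 43346 genes, and sequences from RefSeq GRCm38.p6 and GENCODE M21. Replicate 1 held 79539457 estimated counts on genes and replicate 2 held 65305321; 97 spike-in rows held 0 counts and 26248 rows with numeric identifiers 1 and 0, and both were left out.

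Expected counts were rounded and scaled with edgeR 4.0.16 (R 4.3.3; TMM factors 0.98 and 1.02, filterByExpr, prior count of 2, intercept-only design), and checked on simulated data. DESeq2 1.42.0 was the alternative, and other steps used Python 3.11.15. Ratios used a pseudocount of 0.01 TPM. There are 4 pathway lists and 7 marker lists. Members and lists were chosen with earlier results of these data known. All members were described; of pathway lists the text names the 3 highest, the 2 lowest, the 1 farthest apart and some fixed genes. Values of 1 listed gene are not reported here. No genes were named for a like pattern, since 2 libraries of 1 group give none.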

Additional observations from a re-analysis of the deposited data

How the results depend on the processing

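No direction reversed over 136 alternative values of 29 results, and 111 kept their side of the threshold or stayed within the replicate spread. Of the 136, 92 did not leave out a library, and all that moved (23) or weakened (2) were among these 92. With 2 libraries, a level or share with 1 of them left out always lies within their SD, so those values are no check. Protein-coding transcripts alone gave 47.7 TPM for Ncf1 and 46.3 for Ncf4. With all reads over the longest of them, the levels were 112 and 49.2 TPM, and FPKM gave 49.6 for Ncf4. The log2 ratio of Ncf1 to Ncf4 was 0.05 on protein-coding transcripts. That of Cyba to Ncf1 was 0.56 in counts not per length and 3.94 on protein-coding transcripts. Ncf1-207 held 35.3% of Ncf1 counts, Ncf4-201 87.7% of Ncf4 counts and Cybb-201 99.3% of Cybb counts, or 90.3% of its posterior mean TPM. Ranked among detected genes alone, Cyba, Ncf1, Ncf4 and Cybb stood at percentiles 98.3, 95.1, 77.5 and 24.2.

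Genes apart and higher in replicate 1 or in replicate 2 numbered 79 and 26; on log2 TPM 66 and 66, with filterByExpr 290 and 259, with no filter 463 and 516, and with separate intervals alone 1923 and 3188. The coefficient of variation was 28.7% with no filter and 19% from DESeq2. At 5 TPM, 0 of the other oxidases were detected. A difference between 2 libraries cannot be had without either one. No paired analysis was possible because there is 1 group. Depth limits the other oxidases at 0 counts, and the authors' assignment of reads to overlapping transcripts limits Ncf1.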
